A study of Homo sapiens with 6 samples.

Results

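The interval between 67 and 71.5 Mb of human chromosome 17 (hg19) holds the potassium channel genes KCNJ16 and KCNJ2 at its upstream end and the transcription factor gene SOX9 further downstream. Its members were chosen by position, as the 113 bins of 40 kb that overlap the interval, out of 77356 bins in the contact maps and 2029 on chromosome 17. All 113 bins had enough contacts to be used. The maps come from Hi-C, which fixes chromatin, cuts it (here with BglII) and ligates the ends, so that each read pair records a contact between 2 positions. The cells were LNCaP, an established prostate cancer cell line that responds to androgen. They were transfected with 20 nM of a pool of non-targeting siRNAs (control siRNA) or 20 nM of a pool of siRNAs against CTCF (CTCF siRNA), transfected again after passaging, and collected at 144 h in total. By the labels there were 2 samples with control siRNA, Rep1 and Rep2, and 4 with CTCF siRNA, named Rep1, Rep2, Rep1.1 and Rep2.1. Whether the last 2 were separate libraries or further sequencing of the same ones is not stated. Either way the libraries of a condition were pooled into 1 map, so no difference below could be set against the spread between replicates, and no p-value is given. Intervals are at the 95% level and cover counting error only, since each condition is 1 pooled map. Any PCR copies left among the read pairs would make them too narrow, as such copies are not independent molecules. How far CTCF itself was reduced cannot be read from contact maps.

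CTCF is a DNA-binding protein that halts loop extrusion by cohesin, and pairs of its sites that face each other commonly mark the ends of topologically associating domains (TADs), stretches of chromosome that contact themselves more than their surroundings. SOX9 encodes a transcription factor of cartilage, testis and epithelial progenitors, and it lies beside a long stretch without coding genes that is known for distant enhancers. KCNJ2 and KCNJ16 encode inwardly rectifying potassium channels. Duplications at this locus that include the boundary between the KCNJ2 and SOX9 domains are known from limb malformation, which made it a textbook case of a boundary that keeps enhancers and genes apart.

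Bins at the domain edges were searched for a core pattern of CTCF sites, the letters CCA, any 2 bases, AG, any 2 bases and GGCA, on both strands of the hg19 genome sequence. The edge between the KCNJ2 domain and the gene-free stretch fell in the bin from 68600001 to 68640000, which held 3 matches. They are shown first because the result with the largest difference lies in this bin, and the matches of the neighbouring edges upstream of MAP2K6 and inside LINC00511 follow. Each run reads 5′ to 3′ on the strand of the match, with the pattern in capitals and 8 bases on either side.
KCNJ2 edge, chr17:68610248-68610276, plus strand, intergenic: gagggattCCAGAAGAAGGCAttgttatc
KCNJ2 edge, chr17:68617862-68617890, minus strand, intergenic: gcagcattCCAATAGTGGGCAaagtgagt
KCNJ2 edge, chr17:68626246-68626274, minus strand, intergenic: ctgtgctaCCACAAGATGGCAggggagta
ABCA5 edge, chr17:67243108-67243136, minus strand, UTR exon of ABCA5: agttatatCCACTAGGTGGCAgtcattga
LINC00511 edge, chr17:70525674-70525702, plus strand, intron of LINC00511: cctgctaaCCACAAGATGGCAtggtgcag
The bin at the SOX9 start, from 70080001 to 70120000, held no match. Of the 7 bins with an edge in either map, 5 held a match (71.4%), against 643 of the 1545 usable bins of chromosome 17 (41.6%). A match says only that these letters are present, and no binding data were used here.

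The control map held 26174654 read pairs, of which 52.2% joined places on the same chromosome, and the CTCF siRNA map held 87657687, with 64.2%. A bin of the interval had a median of 435 contacts on chromosome 17 in control against 1680 in CTCF siRNA, which leaves the control with the wider counting intervals. The interval itself is split by base composition. Bins of the KCNJ2 TAD had a median GC content of 38.1% and those of the gene-free TAD 37.6%, whereas bins of the SOX9 TAD had 45.6% and bins of the SLC39A11 TAD downstream 46.6%. Read coverage relative to the median of chromosome 17 moved with this split. It was 1.13 in control and 0.87 in CTCF siRNA over the KCNJ2 TAD, 1.17 and 0.89 over the gene-free TAD, and 1.39 and 1.87 over the SOX9 TAD. The part of coverage and GC content in the contact differences below was not tested, and contacts are therefore also given after balancing, which scales every bin to the same total.

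In the control list of TADs, KCNJ2 and SOX9 did not lie in adjoining domains. The TAD from 67.26 to 68.62 Mb held KCNJ2, KCNJ16, the kinase gene MAP2K6 and the start of ABCA5, a lipid transporter gene. It was followed by a TAD of 1480 kb from 68.62 to 70.10 Mb with no start of a coding gene, here called the gene-desert TAD. SOX9 was the only coding gene to start in the next, a TAD of 440 kb from 70.10 to 70.54 Mb, and its own start lay 17.2 kb inside the upstream edge of it. Upstream of KCNJ2 lay a TAD with ABCA9, ABCA6 and ABCA10. Downstream of SOX9, SLC39A11, a zinc transporter gene, and SSTR2, a somatostatin receptor gene, started in a TAD from 70.54 to 71.18 Mb. COG1, FAM104A, C17orf80, CPSF4L and CDC42EP4 followed in a stretch outside any listed TAD. The last TAD of the interval began at 71.34 Mb, within SDK2.

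In the CTCF siRNA list, 4 TADs covered the interval in place of 6. The KCNJ2 and SOX9 domains were not fused, as no CTCF siRNA TAD held both. KCNJ2 and KCNJ16 lay in a TAD from 66.74 to 68.58 Mb, which took in the ABCA genes, and SOX9 lay in a TAD from 68.58 to 70.54 Mb, which took in the whole gene desert. Each thus held 2 control TADs. Of the 2 control boundaries between KCNJ2 and SOX9, the one at 68.62 Mb had a counterpart in CTCF siRNA at 68.58 Mb, 40 kb away, and the one at 70.10 Mb, in the bin of the SOX9 start, had none. Of all 6 control boundaries of the interval, 3 had a counterpart within 40 kb, at 68.62, 70.54 and 71.34 Mb. This is near the share over the autosomes, where 1434 of 2838 control boundaries with an insulation value had one. If edges had to touch, the boundary at 68.62 Mb no longer counted as kept and 2 of the 6 remained.

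**Figure D1:**
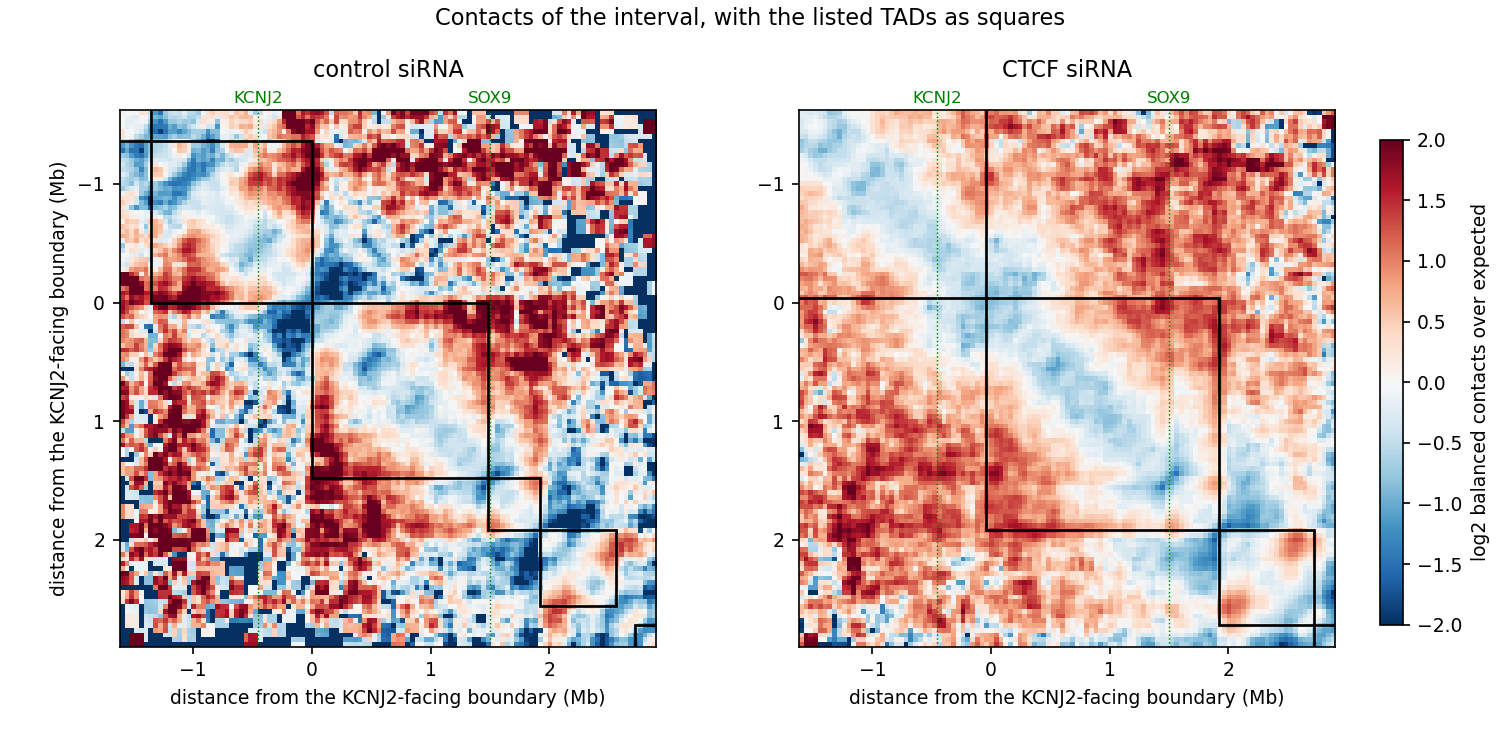
Contacts of the interval in both maps as the log2 of balanced contacts over those expected at the same distance, with each point summed over 3 by 3 bins and colours limited to 2 in either direction. Both axes give the distance in Mb from the centre of the bin of the KCNJ2-facing boundary, black squares are the TADs listed for that map, and dotted lines mark the KCNJ2 and SOX9 starts. In control a blue block of few contacts lies across the boundary at 0, and in CTCF siRNA this block is paler while the squares around it are fewer.

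The boundary that the list kept between KCNJ2 and the gene desert was the position whose insulation differed most between the maps, of the 113 bins. Insulation was measured for each bin as the log2 of contacts over expected across the bin, divided by contacts over expected within the flanks of 400 kb on either side, so that lower values stand for a sharper boundary. At the boundary bin of KCNJ2 the insulation value stood at -1.44 ± 0.13 in control and at -0.14 ± 0.05 in CTCF siRNA, where errors are SDs from 200 redraws of the counts. The difference was 1.30 ± 0.14, and it was 1.37 after balancing. In control this was the lowest of all 113 bins, and in CTCF siRNA it ranked 17 from the lowest. The bin that held the listed CTCF siRNA edge, at 68.56 Mb, had values of -1.16 and -0.17. The lowest value within 5 bins of the boundary in CTCF siRNA was -0.19, in the bin at 68.64 Mb.

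The bin at the SOX9 start showed the opposite pairing of list and map. Its boundary was absent from the CTCF siRNA list, yet its insulation value stood at -0.20 ± 0.07 in control and at -0.27 ± 0.03 in CTCF siRNA, a difference of -0.08 ± 0.08 that lay within counting error. The value in control was already weak for a listed boundary, higher than 94.5% of the 2838 control boundaries of the autosomes that had a value. In both maps it was the lowest bin within 5 bins of the edge.

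The boundary downstream of SOX9, inside LINC00511, a gene for a long noncoding RNA, was kept in place in both lists. Its insulation value stood at -1.32 ± 0.09 in control and at -0.66 ± 0.03 in CTCF siRNA, where it was the lowest of the interval. The boundary at 67.26 Mb inside ABCA5, which was absent from the CTCF siRNA list, had values of -0.74 ± 0.11 and -0.01 ± 0.05. At SSTR2 the values were -0.82 ± 0.09 and -0.43 ± 0.03, and at SDK2 they were -0.27 ± 0.08 and -0.29 ± 0.03. Over the 113 bins, insulation values spanned 2.50 in control and 1.46 in CTCF siRNA, with SDs of 0.61 and 0.34.

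**Figure D2:**
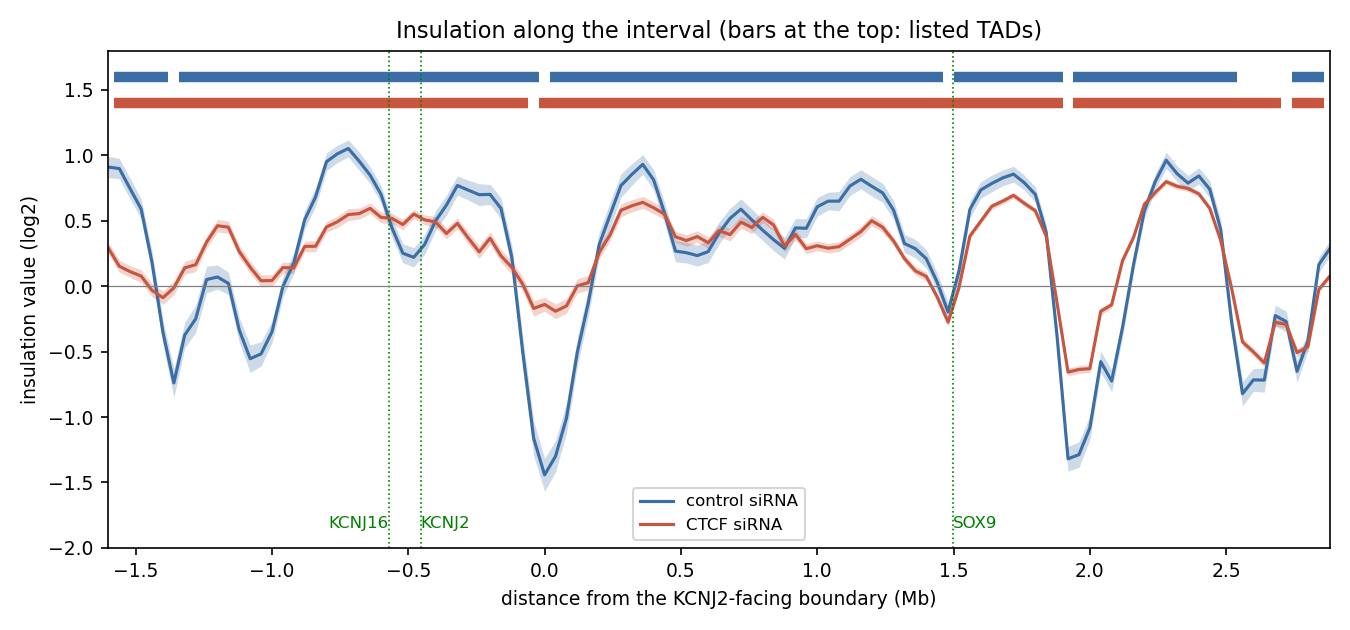
Insulation value of each 40 kb bin (y axis, log2) against distance from the bin of the KCNJ2-facing boundary (x axis, Mb) in control siRNA and CTCF siRNA, with shaded SDs of counting error. Bars at the top are the listed TADs of each map and dotted lines the gene starts. The deep control minimum of -1.44 at 0 was -0.14 in CTCF siRNA, while the small minimum at the SOX9 start stood at -0.20 and -0.27.

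These differences were read against all autosomes. Control boundaries and TADs were called from the control map itself, so a weaker value in the other map can be partly built in. This holds as well for the domain contacts, segregation values and corners below. An insulation value higher by 0.5 or more in CTCF siRNA, set here as the size that counts as a call, was found at 1360 of 2838 control boundaries (47.9%) and at 7463 of 58216 usable bins (12.8%). In the interval it was found at 3 of 6 control boundaries and at 15 of 113 bins (13.3%), which is near those shares. At the KCNJ2 boundary the difference of 1.30 exceeded that of 96.3% of control boundaries, and among the 1434 boundaries with a counterpart in CTCF siRNA it ranked 40, where the median difference was 0.35 with quartiles of 0.07 and 0.65. Boundaries without a counterpart had a median difference of 0.59 (n = 1404), so the KCNJ2 boundary, although listed in both maps, differed by more than 95.4% of those. The SOX9 edge, absent from the CTCF siRNA list, exceeded 3.56% of them.

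**Figure D3:**
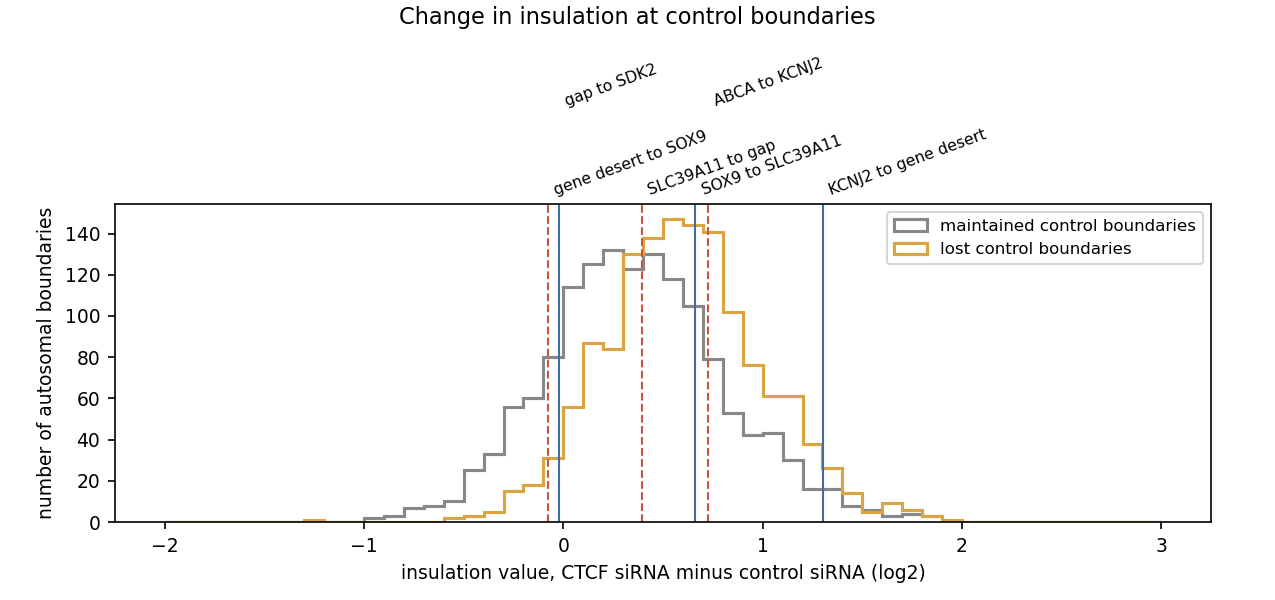
Numbers of autosomal control boundaries (y axis) by the insulation value in CTCF siRNA minus that in control siRNA (x axis, log2, bins of 0.1), drawn separately for boundaries with a counterpart in the CTCF siRNA list (maintained) and without one (lost). Vertical lines mark the 6 control boundaries of the interval, solid where maintained and dashed where lost. The KCNJ2 boundary lies at 1.30, in the right tail of both, and the SOX9 edge at -0.08, to the left of both medians.

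The direction in which bins made their contacts was also described around these boundaries. TADs were called from an index of this direction in the same maps, so a step at a listed edge is built in. It is not separate evidence for the boundary. The directional bias of a bin was its downstream minus its upstream contacts, as a share of their sum, within 2 Mb. In control the mean over the 5 bins before the KCNJ2 boundary was -0.42 and over the 5 bins after it 0.41, a step of 0.83. In CTCF siRNA these means were -0.11 and 0.21, a step of 0.32, and after balancing the steps were 0.84 and 0.24. At the SOX9 edge the step was smaller in control, 0.27, and was 0.23 in CTCF siRNA. At the boundary inside LINC00511 it was 0.59 and 0.38. The sign of the step was the same in both maps at all 3 positions.

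Contacts between the domains were set over those expected at the same distance on chromosome 17. A TAD was counted over the bins wholly inside it, here and for the segregation values and corners below. The bin of the SOX9 start is split by the upstream edge of the SOX9 TAD, so it counts in neither neighbouring TAD. By itself that bin had a ratio of 1.87 (1.08 to 3.50) for contacts with the KCNJ2 TAD, CTCF siRNA over control. Between the KCNJ2 TAD and the SOX9 TAD, which lie far apart, there were 149 contacts in control against 56.4 expected, or 2.64-fold (2.23 to 3.10), and 961 in CTCF siRNA against 338 expected, or 2.84-fold (2.66 to 3.03). The ratio of CTCF siRNA over control was 1.08 (0.90 to 1.29), so that with expected values from chromosome 17 a difference was not detectable. With expected values from all autosomes the ratio was 1.60, outside that interval. Balanced values were lower in both maps, 1.68-fold and 2.09-fold. The excess was not particular to this pair. By read pairs the KCNJ2 and SLC39A11 TADs had 2.35-fold in control and 2.43-fold in CTCF siRNA. The SOX9 TAD and the TAD of the ABCA genes upstream of KCNJ2 had 2.16-fold and 2.17-fold. It was smaller between the KCNJ2 and SDK2 TADs, 1.16-fold and 1.50-fold.

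Directly across the boundary, the KCNJ2 and gene-desert TADs had 920 contacts in control, 0.93-fold of expected (0.87 to 0.99), and 4863 in CTCF siRNA, 0.76-fold (0.74 to 0.78). The ratio of 0.82 (0.76 to 0.88) would put contacts across the boundary lower in CTCF siRNA, but balanced contacts were 0.82-fold and 1.17-fold, a ratio of 1.42 in the other direction. With expected values from all autosomes the ratio was 1.19, so its direction depends on how coverage and distance are treated. Close to the boundary, between the 400 kb on either side, 129 contacts in control were 0.32-fold of expected (0.27 to 0.38) and 866 in CTCF siRNA were 0.35-fold (0.33 to 0.38), against 0.30-fold and 0.67-fold after balancing. The ratio was 1.11 (0.92 to 1.34) by read pairs. Between 1000 kb on either side it was 0.91 (0.83 to 0.99), from 0.68-fold in control and 0.62-fold in CTCF siRNA, while balanced contacts were 0.60-fold and 1.01-fold. Within the flanks of 400 kb, contacts were 0.87-fold and 0.39-fold by read pairs and 0.84-fold and 0.73-fold after balancing. By read pairs the insulation values of the maps thus differed through the flanks, and after balancing mostly through contacts across the boundary.

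Within the domains, contacts over expected were 1.23-fold in the KCNJ2 TAD in control (1.19 to 1.28) and 0.60-fold in CTCF siRNA (0.59 to 0.61). In the gene-desert TAD they were 1.16-fold (1.1 to 1.2) and 0.61-fold (0.59 to 0.62). Within the SOX9 TAD the order was the other way, 2.04-fold (1.90 to 2.18) and 2.41-fold (2.35 to 2.48). After balancing these gaps were smaller: 1.05-fold and 0.88-fold in the KCNJ2 TAD, 0.99-fold and 0.89-fold in the gene desert, and 1.1-fold in both maps in the SOX9 TAD.

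**Figure D4:**
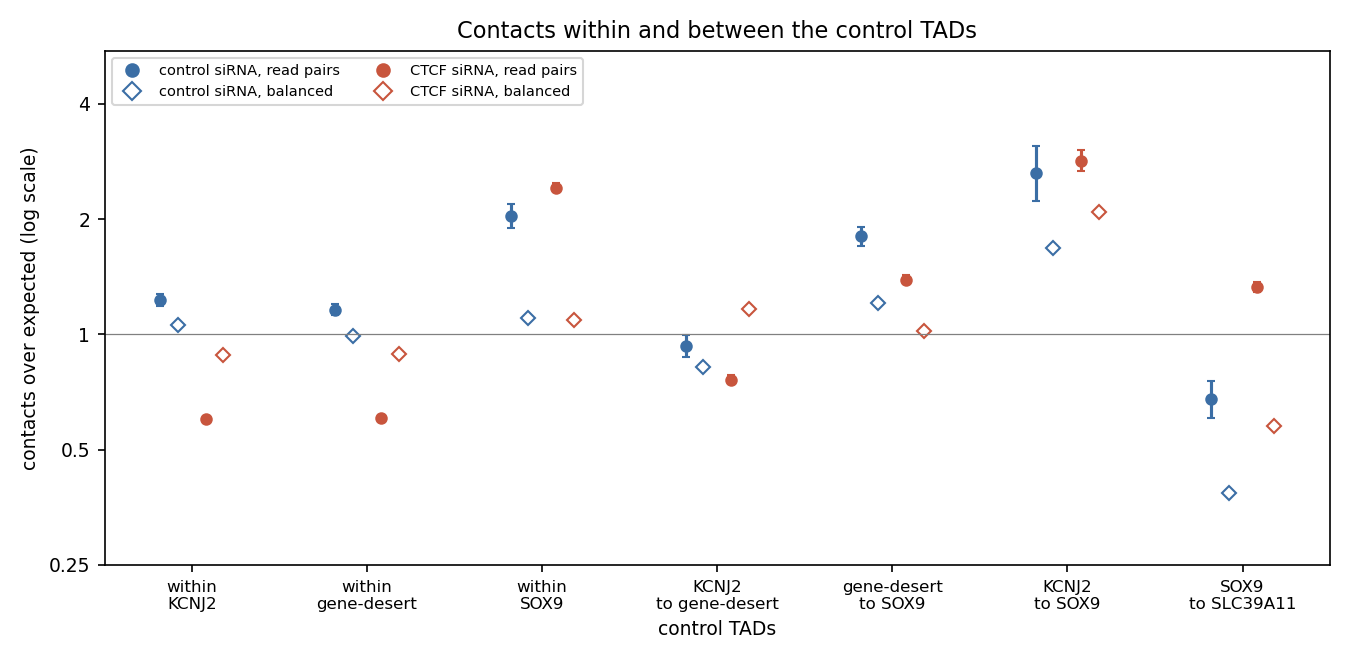
Contacts over expected (y axis, log scale) within and between control TADs (x axis) for control siRNA and CTCF siRNA. Filled points are read pairs with exact Poisson 95% intervals and open diamonds balanced contacts. KCNJ2 to gene-desert contacts are lower in CTCF siRNA by read pairs, 0.76 against 0.93, and higher after balancing, 1.17 against 0.82.

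Set against the contacts within the same domains, contacts across the boundary were higher in CTCF siRNA by read pairs and by balanced contacts alike. This segregation value, the log2 of contacts over expected between a pair of TADs minus that within them, was -0.36 ± 0.05 in control and 0.34 ± 0.02 in CTCF siRNA for the KCNJ2 and gene-desert TADs. Its difference was 0.69 ± 0.06, and 0.71 after balancing. For the KCNJ2 and SOX9 TADs it was 0.98 ± 0.11 and 1.77 ± 0.05, a difference of 0.79 ± 0.12, or 0.54 after balancing. A difference of 0.5 or more was found for 3 of 4 neighbouring pairs of the interval with edges at most 100 kb apart, and for 1004 of 1978 neighbouring pairs of the autosomes (50.8%), which makes such a difference common. The median of those pairs was 0.51, and 66.9% of them lay below the KCNJ2 and gene-desert pair. Among 1540 pairs with 1 TAD between them, as KCNJ2 and SOX9 are, the median was 0.46 and 76.9% lay below the KCNJ2 and SOX9 pair. These medians and ranks rest on read pairs and were not computed for balanced contacts. For the SLC39A11 and SDK2 TADs, left out of the count of 4 pairs by the wider gap between them, the difference ran the other way, at -0.24 ± 0.06, or -0.27 after balancing.

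The gene-desert and SOX9 TADs made many contacts with each other, already in control. Contacts between them were 1.8-fold of expected in control (1.70 to 1.91) and 1.39-fold in CTCF siRNA (1.35 to 1.43), and their segregation value, in which contacts within both TADs are summed and the longer gene desert weighs most, was 0.51 ± 0.05 and 0.77 ± 0.02. In balanced contacts the values were 0.26 and 0.16, so the direction of that difference turned. The SOX9 and SLC39A11 TADs, by contrast, had a segregation value of -1.30 ± 0.09 in control and -0.70 ± 0.03 in CTCF siRNA, the most separate pair of the interval in both maps.

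Corner contacts, between the first and last 5 bins of a domain, are where a loop joining its ends would appear. The corners were placed by the control list, so higher values in control can be partly built in. In the KCNJ2 TAD 39 corner contacts in control were 2.32-fold of expected (1.65 to 3.17) and 110 in CTCF siRNA were 0.92-fold (0.76 to 1.11), a ratio of 0.40 (0.27 to 0.59). In the gene-desert TAD 50 contacts were 3.70-fold (2.75 to 4.88) and 162 were 1.69-fold (1.44 to 1.98), a ratio of 0.46 (0.33 to 0.64). From the start of the gene desert to the end of the SOX9 TAD, which together form the CTCF siRNA domain, 29 contacts were 3.87-fold (2.59 to 5.56) and 135 were 2.76-fold (2.32 to 3.27), and the ratio of 0.71 (0.48 to 1.11) did not exclude 1. Balanced contacts were lower in CTCF siRNA at each corner, with 2.60-fold and 1.65-fold for KCNJ2, 3.93-fold and 2.32-fold for the gene desert, and 3.20-fold and 2.49-fold for the long span.

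From each gene start, contacts were counted by side of the boundary. The KCNJ2 start lies in the bin from 68160001 to 68200000, 455 kb upstream of the centre of the boundary bin. Of its 300 contacts within 2 Mb in control, at least 2 bins away, 42 crossed the boundary, which is 14.0% (10.5 to 18.4%, Wilson). In CTCF siRNA 197 of 909 crossed, 21.7% (19.1 to 24.5%). From distance alone 15.3% would be expected in control and 17% in CTCF siRNA, so the share lay near its expected value in control and above it in CTCF siRNA. Balanced shares were 14.1% and 21.4%. Across the boundary between the gene-desert and SOX9 TADs, the KCNJ2 bin had 3 of 310 contacts in control, 0.97% (0.33 to 2.81%), and 3 of 902 in CTCF siRNA, 0.33% (0.11 to 0.97%). From distance alone 0.21% was expected in either map. The reach of 2 Mb ended at 70.2 Mb, so only the first part of the SOX9 TAD, which ends at 70.54 Mb, was counted. Balanced shares there were 0.83% and 0.19%, and the intervals of the counts overlapped. The bin of a boundary was left out of its shares, and at this boundary that bin holds the SOX9 start. It had 1 contact with the KCNJ2 bin in control and 12 in CTCF siRNA, so these shares do not cover contacts with the SOX9 start itself.

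KCNJ16 starts 570 kb upstream of the boundary. In control 31 of 341 contacts crossed it, 9.09% (6.48 to 12.6%) against 11.7% expected, and in CTCF siRNA 180 of 1033 crossed, 17.4% (15.2 to 19.9%) against 13.1% expected. The intervals of the maps did not overlap for either channel gene. The higher shares went with lower contacts inside the KCNJ2 TAD, where the KCNJ2 bin had 1.43-fold of expected in control (1.25 to 1.62) and 0.62-fold in CTCF siRNA (0.57 to 0.67), and the KCNJ16 bin 1.62-fold (1.44 to 1.82) and 0.70-fold (0.65 to 0.75). The gap was smaller after balancing, at 1.04-fold and 0.85-fold for KCNJ2 and 1.01-fold and 0.84-fold for KCNJ16. With the gene-desert TAD neither bin had more contacts over expected by read pairs in CTCF siRNA. The ratio of CTCF siRNA over control was 0.71 for KCNJ2 (0.50 to 1.04) and 0.86 for KCNJ16 (0.58 to 1.3). Balanced contacts with the gene desert were 0.89-fold and 1.16-fold for KCNJ2 and 0.89-fold and 1.23-fold for KCNJ16, which is the other direction.

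SOX9 starts 1497 kb downstream of that boundary, so few of its contacts reached across. In control 7 of 471 did, 1.49% (0.72 to 3.04%) against 1.66% expected, and in CTCF siRNA 93 of 2715 did, 3.43% (2.80 to 4.18%) against 1.8% expected. The difference was 1.94 percentage points (0.65 to 3.23, normal approximation), and it rests on 7 contacts in control. Balanced shares were 1.80% and 5.30%, a difference of 3.50 points. Contacts with the KCNJ2 TAD were counted without the limit of 2 Mb, since part of that TAD lies further from SOX9. With that TAD the SOX9 bin had 14 contacts in control, 2.07-fold of expected (1.13 to 3.48). In CTCF siRNA it had 163, 3.88-fold (3.31 to 4.53), a ratio of 1.87 (1.08 to 3.50). Balanced contacts were 1.08-fold and 2.50-fold. The KCNJ2 and SOX9 start bins shared 1 contact in control, where 0.23 was expected, and 12 in CTCF siRNA, where 1.48 was expected. Counted over the 3 by 3 bins around that pair, 5 contacts in control were 2.40-fold of expected (0.78 to 5.61) and 42 in CTCF siRNA were 3.19-fold (2.30 to 4.31). The ratio of 1.33 (0.53 to 4.29) did not exclude 1. Around the KCNJ16 and SOX9 starts, 2 contacts in control were 1.07-fold (0.13 to 3.86) and 48 in CTCF siRNA were 4.19-fold (3.09 to 5.55), a ratio of 3.92 with a wide interval (1.03 to 33.3). The SOX9 TAD was counted over the 10 bins wholly inside it, which leave out the bin of the SOX9 start. With these 10 bins the KCNJ2 bin had 6 contacts in control, 3.10-fold of expected (1.14 to 6.75). In CTCF siRNA it had 34, 2.92-fold (2.02 to 4.08). The ratio there was 0.94 for KCNJ2 (0.39 to 2.75) and 1.06 for KCNJ16 (0.44 to 3.06), and neither interval excluded 1. Balanced contacts with the SOX9 TAD were 1.66-fold and 1.78-fold for KCNJ2 and 1.45-fold and 1.99-fold for KCNJ16. The 3 by 3 counts are given as read pairs only. With the SLC39A11 TAD the KCNJ2 bin had 1 contact in control, 0.51-fold (0.01 to 2.82), and 34 in CTCF siRNA, 3.08-fold (2.13 to 4.30). Balanced contacts there were 0.29-fold and 2.28-fold.

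The bin that each gene contacted most, at least 5 bins away, was picked by its count, so a higher value in the map that picked it is built in and these values are only a description. In control the KCNJ2 bin had most contacts with the bin at 68.52 Mb, close to the boundary, where 14 contacts were 3.34-fold of expected (1.83 to 5.60), and in CTCF siRNA 16 contacts there were 0.62-fold (0.35 to 1.01). In CTCF siRNA it had most contacts with the bin at 67.96 Mb, where 6 contacts in control were 0.75-fold (0.28 to 1.64) and 32 in CTCF siRNA were 0.70-fold (0.48 to 0.99). Balanced values were 2.37-fold and 1.08-fold at the first of these bins and 0.45-fold and 0.79-fold at the second. For KCNJ16, 2 bins tied in control with 19 contacts each, at 67.68 and 67.84 Mb, both over the noncoding gene LINC01483. They had 4.53-fold and 2.39-fold of expected in control, and 1.28-fold and 0.85-fold in CTCF siRNA, where the bin at 67.84 Mb led with 39 contacts. After balancing they had 2.19-fold and 1.37-fold in control and 1.03-fold and 0.94-fold in CTCF siRNA. The SOX9 bin had most contacts in both maps with the bin at 70.48 Mb, 400 kb downstream inside LINC00511. There 28 contacts in control were 7.51-fold of expected (4.99 to 10.8) and 168 in CTCF siRNA were 7.32-fold (6.26 to 8.52), or 2.26-fold and 1.68-fold after balancing.

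SOX9 contacted the gene desert above expectation in both maps. With the gene-desert TAD it had 272 contacts in control, 2.58-fold (2.29 to 2.91), and 1276 in CTCF siRNA, 2.02-fold (1.91 to 2.14), and balanced values were 1.28-fold and 1.22-fold. Upstream contacts made up 59.5% of those of the SOX9 bin in control (55.0 to 63.8%) and 50.6% in CTCF siRNA (48.7 to 52.5%). After balancing these shares were 62.0% and 64.0%, so the lower upstream share in CTCF siRNA was not seen once coverage was evened out.

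**Figure D5:**
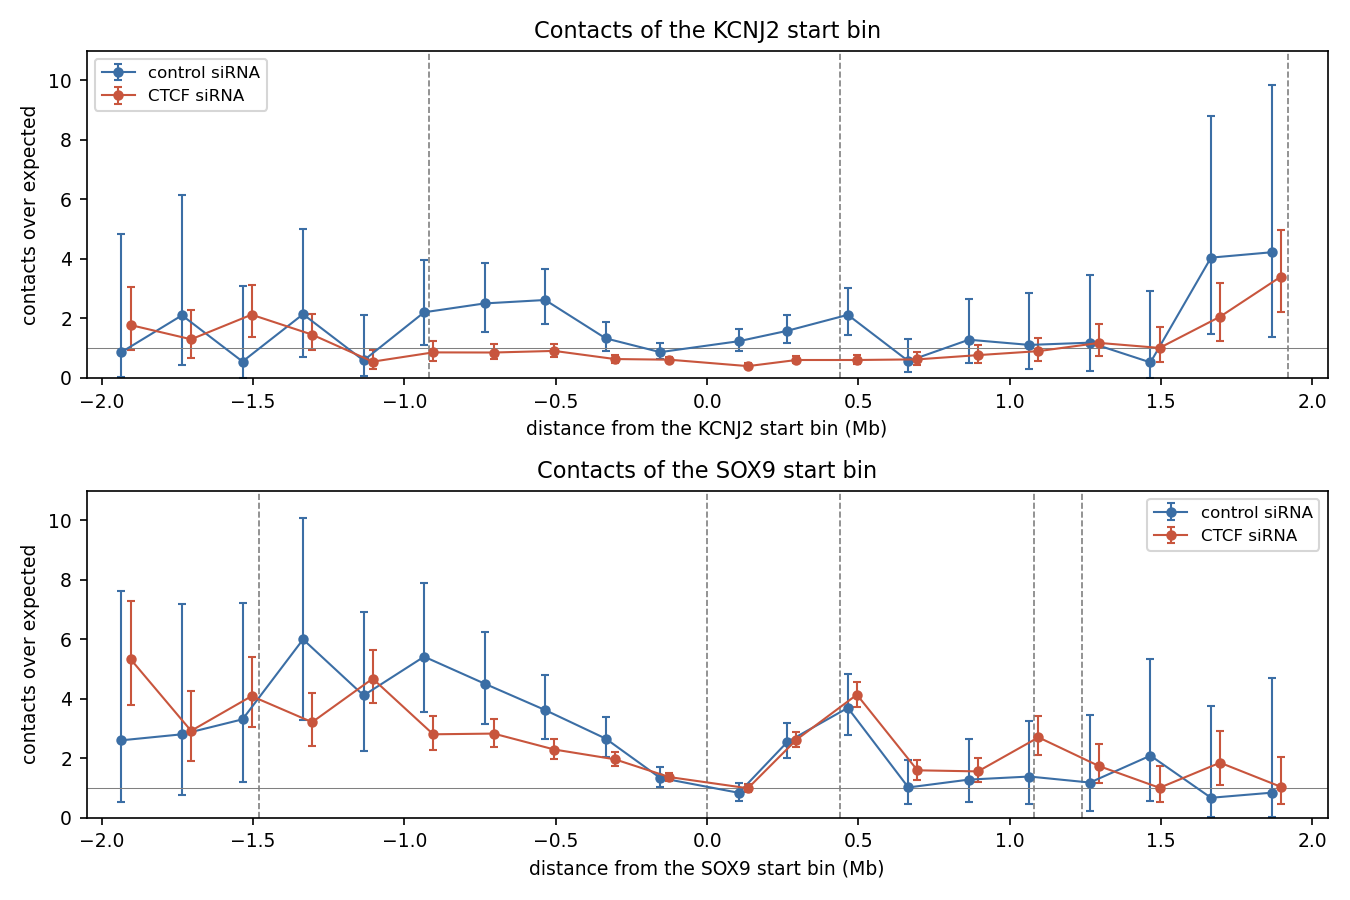
Contacts over expected (y axis) of the KCNJ2 start bin (top) and the SOX9 start bin (bottom) in windows of 5 bins (200 kb) against distance from that bin (x axis, Mb), as read pairs with exact Poisson 95% intervals. Dashed lines mark control boundary bins. From KCNJ2, control contacts stand above those of CTCF siRNA within the KCNJ2 TAD and in the window that spans its boundary, and from SOX9 contacts downstream are highest, in both maps, in the window at the boundary inside LINC00511, while windows far upstream reach higher values.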

How the data were processed

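The authors mapped BglII Hi-C reads to hg19 (HiCUP, Bowtie 1.1.0), marked duplicates (Picard 1.121), pooled each condition and called TADs by hidden Markov model from directionality indices. The deposited contact values behaved as read-pair counts multiplied by a factor for each position, different from 1 only between positions 9400001 and 48120000 of each chromosome and so 1 throughout the interval. The authors describe bias offsets from HiCorrector and mappability tracks, used when calling significant contacts. Whether the factors stand for either of these is not stated. The counts were recovered by division, and 99.99% came out whole, with a tolerance of 0.0101 and a further 0.05% of the value. Expected contacts were the mean at the same distance over usable bins (at least 10% of the median coverage) of chromosome 17. Balancing was iterative over chromosome 17. Insulation needed 50% of its bin pairs. Contact intervals are exact Poisson, ratios exact conditional binomial and shares Wilson. Facing TAD edges up to 100 kb apart counted as 1 boundary, and background pairs of TADs had at least 3 bins each and 20 control contacts between them. Groups follow the siRNA named in sample titles. The 16 protein-coding genes were named by position, with noncoding genes only at boundary bins or leading contacts, from GENCODE on GRCh37. Computations used Python 3.11.15, numpy 2.4.6 and scipy 1.17.1, were tested on simulated maps, and members and lists were chosen with earlier results of these data known. The contact values had been planned for as plain counts. The gene-desert TAD and the SOX9 edge were added after the TAD lists were seen.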

Additional observations from a re-analysis of the deposited data

How the results depend on the processing

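Over 9 results 63 alternatives were run, and in 55 the value stayed within the counting interval of the reported one or, for boundary counts, within 1.5 times. The ratio of KCNJ2 to SOX9 contacts, 1.08, was 1.60 with the expected value from all autosomes. The ratio of KCNJ2 to gene-desert contacts, 0.82, was 0.90 with expected values from chromosome 17 past 48.12 Mb, and turned direction with those of all autosomes, 1.19, and after balancing, 1.42. The insulation difference at the KCNJ2 boundary, 1.30, was 1.88 with flanks of 200 kb and 0.99 with flanks of 800 kb. The segregation difference of the KCNJ2 and SOX9 TADs, 0.79, was 0.54 after balancing. The difference in the share of SOX9 contacts across the boundary, 1.94 percentage points, was 3.50 after balancing. The causes were not tested. Contacts up to 1 Mb gave no value for SOX9, which lies 1497 kb from the boundary. Chosen after seeing the data were the alternatives for the gene-desert TAD and the SOX9 edge and the balanced shares. No paired analysis was possible because each map pools every library of its condition, and for the same reason no replicate could be left out. Depth limits the control map most: the KCNJ2 and SOX9 start bins shared 1 contact there.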

Other observations

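Some local insulation minima of the control map lay at bins that hold no edge of its list. The bin at 70.68 Mb, inside the SLC39A11 TAD, had an insulation value of -0.72 in control and -0.14 in CTCF siRNA. The bin at 67.52 Mb, over MAP2K6 inside the KCNJ2 TAD, had -0.55 and 0.15. The bin after it, at 67.56 Mb, had -0.52 in control, so these neighbours were not distinct within counting error. In the stretch outside any listed TAD the bin at 71.24 Mb had -0.72 and -0.59. The bin before it, at 71.2 Mb, also had -0.72 in control, so within counting error this minimum was not distinct from its neighbour. The bin at 71.36 Mb, beside the SDK2 edge, had -0.65 and -0.51.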
